A study of Mus musculus with 6 samples.

Results

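The endothelin system comprises the genes of 3 small peptide ligands (Edn1, Edn2 and Edn3), of the 2 enzymes that cut their precursors into active peptides (Ece1 and Ece2) and of the 2 receptors that bind them (Ednra and Ednrb). These 7 genes were taken by name out of 55536 listed genes. The set was chosen with earlier results on the same control and nattokinase libraries known, so the difference of its members between the groups is given as a description and not as a test. Transcripts were sequenced in SVEC4-10, an immortalised mouse cell line that the labels call endothelial, with 3 untreated libraries and 3 libraries from cells given nattokinase for 24 hours. Both groups were grown in medium with fetal bovine serum and were seeded 24 hours before the treatment began, which was given to sub-confluent dishes. Nattokinase is a serine protease of fermented soybeans that digests fibrin, and its dose was not stated in the labels. No label says that the libraries came from separate cultures, so every spread and p-value describes these samples and may be technical.

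Endothelin-1, the product of Edn1, is made mainly by vascular endothelium as a long precursor. Furin-like proteases release an inactive intermediate, which a membrane-bound metalloprotease, usually that of Ece1, converts to the active peptide. The peptide contracts smooth muscle and drives matrix synthesis through the receptor of Ednra, whereas the receptor of Ednrb on endothelium triggers release of vasodilators and clears the ligand. Edn3 and Ednrb are best known for their part in the development of melanocytes and enteric neurons.

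The coding stretches of the 3 mature peptides are shown to compare the ligands, and each runs over 21 codons. Reads were counted per gene over all its exons and not over these stretches. The stretches were read from the GENCODE M21 transcripts on the coding strand. Capitals mark the 4 cysteine codons, whose products form the disulfide bonds shared by the family.
Edn1: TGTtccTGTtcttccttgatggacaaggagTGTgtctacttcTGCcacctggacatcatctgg
Edn2: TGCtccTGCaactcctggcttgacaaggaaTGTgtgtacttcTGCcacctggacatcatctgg
Edn3: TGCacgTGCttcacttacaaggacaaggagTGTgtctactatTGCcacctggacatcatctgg
Over this stretch Edn1 shared 53 of 63 bases with Edn2 (84.1%) and 50 with Edn3 (79.4%). The longest run of identical bases between any annotated transcripts of Edn1 and Edn2 was 29, and it was 21 between Edn1 and Edn3. It was 17 between Ece1 and Ece2, and 15 between Ednra and Ednrb.

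Transcripts of 1 ligand and 1 converting enzyme were abundant, and those of both receptors were almost absent. Levels are given as FPKM, reads scaled to the exon length of the gene and to all reads assigned to genes in the library, which allows genes of different length to be compared. Edn1 and Ece1 passed the filter for testing, at least 1 FPKM in at least 3 libraries, and the other 5 members did not. Edn3, Ece2 and Ednrb had 0 reads in all 6 libraries. In the untreated cells the order of levels was Ece1, Edn1, Edn2 and Ednra, followed by the 3 genes without reads, and Edn2, Ednra and those 3 could not be ordered at this depth. The libraries held between 15044778 and 18341370 assigned reads each.

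**Figure D1:**
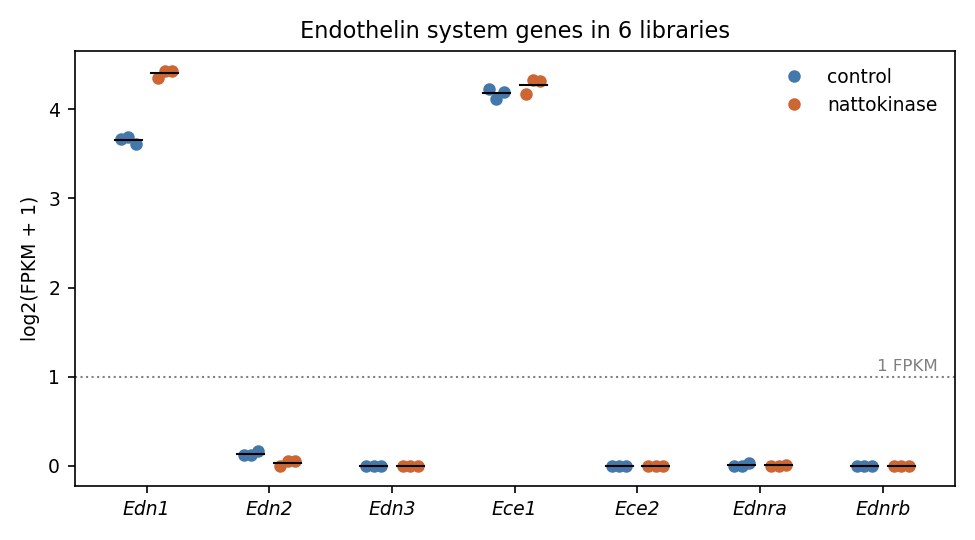
Levels of the 7 endothelin system genes as log2(FPKM + 1) in 3 control and 3 nattokinase libraries, with 1 point per library and a line at each group's mean. Edn1 and Ece1 lie above the dotted line at 1 FPKM, Edn1 with separate groups, and the other 5 genes lie near 0.

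Edn1 encodes endothelin-1 (Ensembl ENSMUSG00000021367; GRCm38 chromosome 13, 42301476 to 42307990, plus strand, 2139 bases of exon in 1 annotated transcript). Its level was 11.7, 11.9 and 11.2 FPKM in the control libraries and 19.4, 20.6 and 20.6 FPKM in the nattokinase libraries. All 3 nattokinase libraries lay above all 3 controls. The group means were 11.6 ± 0.37 and 20.2 ± 0.69 FPKM (SD, n = 3 each), a ratio of 1.74. On the log2(FPKM + 1) scale the difference was 0.75 with a standard error of 0.049 in the limma fit over all genes.

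The values of Edn1 rested on 407, 383 and 395 reads in the controls and 749, 772 and 809 reads with nattokinase. The exact Poisson 95% intervals, which cover counting error only, reached up to 13.2 FPKM in the controls and down to 18.05 FPKM with nattokinase, so they did not meet between the groups. The coefficient of variation between libraries was 3.19% in the controls and 3.41% with nattokinase, beside 5.03% and 3.59% from counting alone. The libraries of a group therefore differed in Edn1 by no more than counting error gives.

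**Figure D2:**
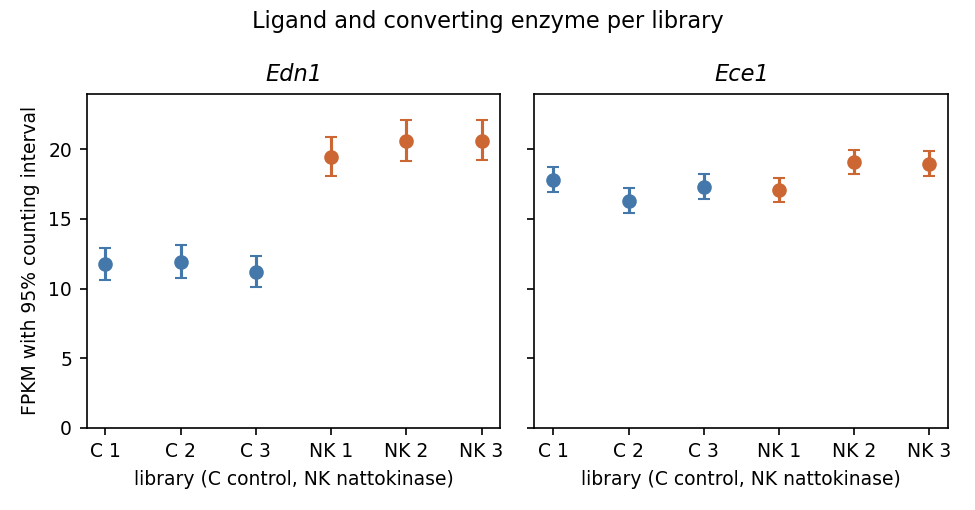
FPKM of Edn1 and Ece1 in each library, with exact Poisson 95% intervals as bars and both axes starting at 0. Edn1 lies between 11.2 and 11.9 in the controls and between 19.4 and 20.6 with nattokinase, whereas the 2 groups overlap for Ece1.

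The exons of Edn1 overlap those of 1 other gene, Gm47118, an antisense transcript on the opposite strand. The shared part is 35 bases, 1.64% of the exon length of Edn1. Gm47118 itself had 1 to 7 reads per library, which is small beside the reads of Edn1.

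The other ligand genes were at or near 0. Edn2, a ligand gene known from intestine and ovary (ENSMUSG00000028635; chromosome 4, 120161206 to 120167360, plus strand), had 2, 2 and 3 reads in the controls and 0, 1 and 1 with nattokinase (0.084, 0.091 and 0.124 FPKM, then 0, 0.039 and 0.037 FPKM). No library exceeded the limit of 3 reads that a count of 0 allows, so no ratio is given, although the highest nattokinase library lay below the lowest control. Edn3 (ENSMUSG00000027524; chromosome 2, 174760619 to 174784042, plus strand) had 0 reads throughout, which allows up to 0.0398 to 0.0485 FPKM depending on the library.

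Ece1 encodes the main endothelin-converting enzyme, a zinc metalloprotease of cell membranes (ENSMUSG00000057530; chromosome 4, 137862237 to 137965229, plus strand, 5300 bases of exon over 4 annotated transcripts). Its level was 17.8, 16.3 and 17.3 FPKM in the controls and 17.1, 19.1 and 19.0 FPKM with nattokinase. Nattokinase replicate 1 lay within the range of the controls, and the other nattokinase libraries lay above it. The means were 17.1 ± 0.76 and 18.4 ± 1.13 FPKM (SD, n = 3 each), a ratio of 1.07 and a log2 difference of 0.095 with a standard error of 0.057.

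The spread of Ece1 between libraries was wider than counting gives, with a coefficient of variation of 4.43% and 6.16% beside 2.63% and 2.39% from counting. Its 1299 to 1844 reads per library make it the best counted member. The deposited values are per gene, so the Ece1 isoforms, which differ in where they sit in the cell, were not separated.

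The order of Edn1 and Ece1 by measured FPKM differed between the groups, which follows from the difference in Edn1 and is no separate result. The ratio of Edn1 to Ece1 in FPKM was 0.660, 0.731 and 0.647 in the controls and 1.14, 1.08 and 1.09 with nattokinase. The means were 0.679 ± 0.045 and 1.10 ± 0.032 (SD, n = 3 each). In every control library Ece1 had the higher value of the pair, and in every nattokinase library Edn1 had. The exact Poisson intervals of the pair overlapped in nattokinase replicates 2 and 3, so counting error leaves the order open there. They were apart in nattokinase replicate 1 and in every control. The level of Ece1 was scaled to the exon length of all its annotated transcripts together, and the order depends on that length too.

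Ece2, a related enzyme with an acidic pH optimum found mainly in neural tissue, had 0 reads in all 6 libraries. Its locus (ENSMUSG00000022842; chromosome 16, 20629828 to 20646485, plus strand) shares 2937 bases, 57.5% of its exon length, with Gm49333, a longer gene annotated over it on the same strand. Gm49333 had 0 reads in 5 libraries and 1 read in nattokinase replicate 3. How reads on the shared exons were assigned was not stated, so the 0 of Ece2 speaks mainly for the exon bases that it shares with no other gene. The neighbouring gene Eef1akmt4, which starts upstream on the same strand, had 82 to 162 reads per library.

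Neither receptor gene was expressed at a measurable level. Ednra (ENSMUSG00000031616; chromosome 8, 77663031 to 77724464, minus strand) had 2 reads in control replicate 3, 1 read in nattokinase replicate 3 and 0 in the other 4 libraries. A count of 0 allows up to 0.030 to 0.036 FPKM for Ednra. Its exons share 91 bases, 1.66% of their length, with 4933431K23Rik on the other strand, which had 0 reads. Ednrb (ENSMUSG00000022122; chromosome 14, 103814625 to 103844402, minus strand) had 0 reads throughout, which allows up to 0.038 to 0.047 FPKM. Of 22028 protein-coding genes, 28.3% had 0 reads in all 6 libraries. The ligand gene Edn1 thus had 383 to 809 reads in libraries in which neither receptor gene passed 2.

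The neighbours of the members were of mixed level. Of the 28 nearest protein-coding neighbours of the 7 genes, 4 for each and chosen after the values were seen, 16 passed the filter. They included 3 of 4 beside Edn2, 1 of 4 beside Edn3, 2 of 4 beside Ece1, 4 of 4 beside Ece2, and 2 of 4 beside each receptor gene. Foxo6, next to Edn2, was called lower, from 12.4 ± 0.34 to 9.90 ± 0.44 FPKM (SD, n = 3 each, limma adjusted p = 0.0074). Its call was not followed over the alternatives. Prelid3b near Edn3 had 44.6 ± 2.23 FPKM in the controls, Psmd2 next to Ece2 had 117 ± 3.81, and Tmem184c next to Ednra had 8.86 ± 0.72 (SD, n = 3 each). Zfp831 and Gm14444 beside Edn3 and Pou4f2 beside Ednra had 0 reads in all 6 libraries.

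Around Edn1 itself, 2 of 4 neighbours passed the filter. Hivep1, a zinc finger transcription factor gene 108939 bases below it, had control and nattokinase levels of 8.08 ± 0.32 and 8.65 ± 0.079 FPKM (limma adjusted p = 0.36). Tbc1d7, a subunit gene of the TSC complex that restrains mTOR, lies 843750 bases above and fell from 5.27 ± 0.15 to 4.40 ± 0.12 FPKM (limma adjusted p = 0.042). That call was lost in 8 of 14 alternatives, and control replicate 1 was the single library whose removal kept it (highest adjusted p 0.15). Phactr1 and Adtrp, the other neighbours, were below the filter.

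Among 10913 genes tested with limma, 5.61% were called higher and 3.24% lower with nattokinase at an adjusted p of 0.05. Of the 2 tested members 1, Edn1, was called higher and 0 lower, and since the set was chosen on this contrast nothing is read from that count. The groups did not overlap for 28.8% of tested genes, against 1 of the 2 tested members. By log2 fold change Edn1 ranked 37 of 10913 from the highest, and Ece1 ranked 2790. By level in the controls they were nearer each other, above 61.3% and 72.3% of tested genes.

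**Figure D3:**
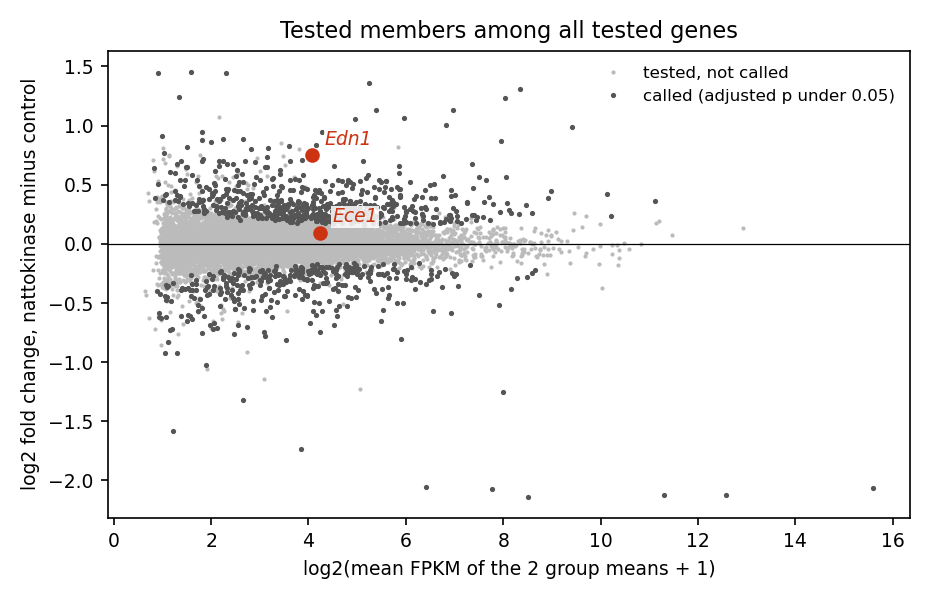
Log2 fold change (nattokinase minus control, on the log2(FPKM + 1) scale) against mean level for 10913 tested genes, with called genes in dark grey. Edn1 lies at 0.75 above most of the genes of its level, and Ece1 lies at 0.095 within the bulk.

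The libraries also differed in other respects that moved with the groups. A list of rRNA-like and structural RNA genes, of which 6 were tested and 6 called lower, took 2.55% to 3.97% of reads in the controls and 0.740% to 0.829% with nattokinase. After rescaling to equal totals on protein-coding genes, the log2 difference of Edn1 was 0.72, beside 0.75 as deposited. Ednra is normally high in smooth muscle and mural cells. The summed level of their 8 markers was 19.9 to 21.5 FPKM in the controls and 24.7 to 27.04 FPKM with nattokinase. Most of that sum was Pdgfrb, with 16.99 ± 0.73 and 19.4 ± 1.67 FPKM (SD, n = 3 each, limma adjusted p = 0.12). Actg2 was called higher, at 0.973 to 1.836 FPKM in the controls and 3.187 to 4.095 FPKM with nattokinase (limma adjusted p = 0.0026). The higher sum was thus not that of Pdgfrb alone. Notch3 was lower without a call, with 1.55 ± 0.072 and 1.24 ± 0.093 FPKM (adjusted p = 0.20). Myh11, Des, Cnn1, Rgs5 and Cspg4 were below the filter and were not tested. Among them Cnn1 had separate groups, at 0.222 to 0.389 FPKM in the controls and 0.937 to 1.126 FPKM with nattokinase, on 10 to 55 reads per library. For the others the groups overlapped. The 6 leukocyte markers summed to 1.26 to 1.604 and 2.36 to 2.80 FPKM, with Cd68 called higher and Ptprc and Cd3e at 0. The part of either marker list in the level of Edn1 was not tested.

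The markers of the labelled cell type were nearly absent. None of 12 endothelial markers passed the filter, their sum was 0.856 to 1.63 FPKM in the controls and 1.09 to 1.23 with nattokinase, and Tie1, Erg, Cldn5 and Emcn had 0 reads. Of 5 lymphatic markers Flt4 and Pdpn passed, Pdpn being called lower, with Prox1, Lyve1 and Reln at 0. The 7 fibroblast markers summed to 2051 to 2198 FPKM in the controls and 1830 to 1899 with nattokinase, Col3a1 being called lower. Most of that sum was Col1a1 and Col1a2, at 1403 ± 67.3 and 524 ± 16.0 FPKM in the controls (SD, n = 3). Dcn and Pdgfra had 21.7 ± 0.96 and 7.45 ± 0.22 FPKM there. Lum and Dpt were below the filter, with at most 10 and 16 reads per library. The 8 melanocyte and glial markers, cells known for Ednrb, summed to at most 1.04 FPKM, with Tyr, Dct and Foxd3 at 0. The 6 epithelial markers summed to 6.48 to 7.87 and 7.30 to 8.92 FPKM, with Cldn4 at 0. In bulk RNA, fewer cells of a type and less RNA per cell cannot be told apart.

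The protease list held enzymes other than Ece1 and Ece2 that release, trim or degrade endothelins or that resemble the converting enzymes. Of 12 listed genes 7 were tested, and 2 rose and 0 fell, beside 5.61% and 3.24% of all tested genes. This list too was chosen with earlier results of these data known, and the count is a description. Ctsa, the lysosomal carboxypeptidase that removes the terminal residue of endothelin-1, rose by 0.34 on the log2 scale, from 30.4 ± 0.78 to 38.8 ± 2.89 FPKM (SD, n = 3, limma adjusted p = 0.0058). Ide, the insulin-degrading metalloprotease, rose from 21.9 ± 0.77 to 25.3 ± 1.0 FPKM, a log2 difference of 0.20 (limma adjusted p = 0.031). The call of Ide was lost in 7 of 14 alternatives (adjusted p 0.0066 to 0.13), among them rescaling to protein-coding totals and leaving out control replicate 2 or 3 or nattokinase replicate 1 or 3. Without the filter on low values neither passed (adjusted p = 0.063 for Ctsa).

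No call was made for the proteases that act before the converting step. Furin, which cleaves the endothelin precursor, had 12.9 ± 0.37 and 12.1 ± 0.40 FPKM (limma adjusted p = 0.34), and the related convertase gene Pcsk5 had 1.26 ± 0.14 and 1.04 ± 0.087 (adjusted p = 0.38). Over all 7 tested enzymes, Ctsa and Ide included, the median log2 fold change was -0.015, beside 0.012 over all tested genes. Mme, which encodes the endothelin-degrading peptidase neprilysin, was below the filter with 36 to 91 reads per library. Ecel1 and Kel, relatives of the converting enzymes, had 0 reads in all 6 libraries.

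Downstream of the receptors, 29 of 33 signalling genes were tested, and 0 rose and 0 fell with limma, beside 5.61% and 3.24% of all tested genes. With so few genes, counts of 0 are not set apart from those shares. At an unadjusted p under 0.05 there were 4, for which no share over all tested genes was taken. Limma-voom on recovered reads called 1, Plcb4. The 4 genes with the smallest p were Src, Grk6, Prkca and Plcb4. The tyrosine kinase gene Src had control and nattokinase means of 19.5 ± 0.28 and 21.8 ± 0.81 FPKM (limma adjusted p = 0.075). The receptor kinase gene Grk6 had 25.98 ± 1.01 and 28.8 ± 0.54 FPKM (adjusted p = 0.084).

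The protein kinase C gene Prkca had 14.3 ± 0.60 and 15.8 ± 0.35 FPKM (limma adjusted p = 0.13). The phospholipase gene Plcb4 had 1.2201 ± 0.081 and 1.57 ± 0.092 FPKM (adjusted p = 0.14). Gnaq and Gna11, whose G proteins couple both receptors to phospholipase C, were expressed at 12.98 ± 0.73 and 47.1 ± 0.36 FPKM in the controls and had log2 fold changes of 0.015 and -0.061. Most of the listed downstream genes, 29 of 33, were thus past the filter, although neither receptor gene was at a measurable level. Plcb2 had 0 reads, and Prkcb had at most 2 per library. Without control replicate 1, Rock2 was called higher (log2 fold change 0.39, adjusted p = 0.0066) and Gnai2 lower (-0.14, adjusted p = 0.045). Gnas lay below the filter with 67 to 164 reads per library, and its exons overlap those of other genes.

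Transcription factors that have been described at the Edn1 promoter were all expressed, and some of them rose. Of 22 genes, all tested, 5 rose and 0 fell, beside 5.61% and 3.24% of all tested genes. The median log2 fold change was 0.097, beside 0.012 over all tested genes. The list was chosen with earlier results of these data known, so these values describe it and are no test of it. Jun, Junb, Jund and Fosl2, 4 of the 5, encode subunits of AP-1, a dimer that binds the Edn1 promoter. Jun, at 21.9 ± 1.03 FPKM in the controls, rose by 0.36 on the log2 scale to 28.4 ± 1.36 (SE 0.053, limma adjusted p = 0.0025), and Junb from 46.5 ± 2.35 to 58.2 ± 3.21 FPKM (adjusted p = 0.0068). Fosl2 rose from 20.1 ± 0.68 to 24.2 ± 0.55 FPKM (adjusted p = 0.0076), and Jund from 36.8 ± 1.69 to 42.8 ± 1.71 FPKM (adjusted p = 0.030).

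The fifth gene, Klf2, encodes a flow-induced factor known to lower Edn1 transcription. Klf2 had 3.22 ± 0.59 FPKM in the controls and rose by 0.67 on the log2 scale to 5.69 ± 0.24 (SE 0.093, limma adjusted p = 0.0019), on 83 to 193 reads per library. Fos had 6.06 ± 0.52 and 7.40 ± 0.67 FPKM (adjusted p = 0.080), and the NF-kB subunit gene Rela had 32.05 ± 0.78 and 35.9 ± 1.32 FPKM (adjusted p = 0.063). Fos was called higher with the replicate number as a block (adjusted p = 0.048) and without nattokinase replicate 1 (0.046), and Rela with limma-voom (0.047), which called 6 of the factors. Gata2, the factor of the GATA element in the promoter, had log2 fold change -0.052, Hif1a 0.045 and Smad3 -0.041. Lower without a call were Gata4, with 21.6 ± 0.11 and 19.6 ± 0.73 FPKM (limma adjusted p = 0.12), and Foxo1, with 4.52 ± 0.26 and 3.94 ± 0.22 (adjusted p = 0.18). Of the 22 log2 fold changes 15 were above 0. The call of Jund was lost in 5 of 14 alternatives, among them leaving out control replicate 2 or nattokinase replicate 1 or 3 (adjusted p up to 0.14). Without the filter on low values only Jun and Klf2 passed.

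**Figure D4:**
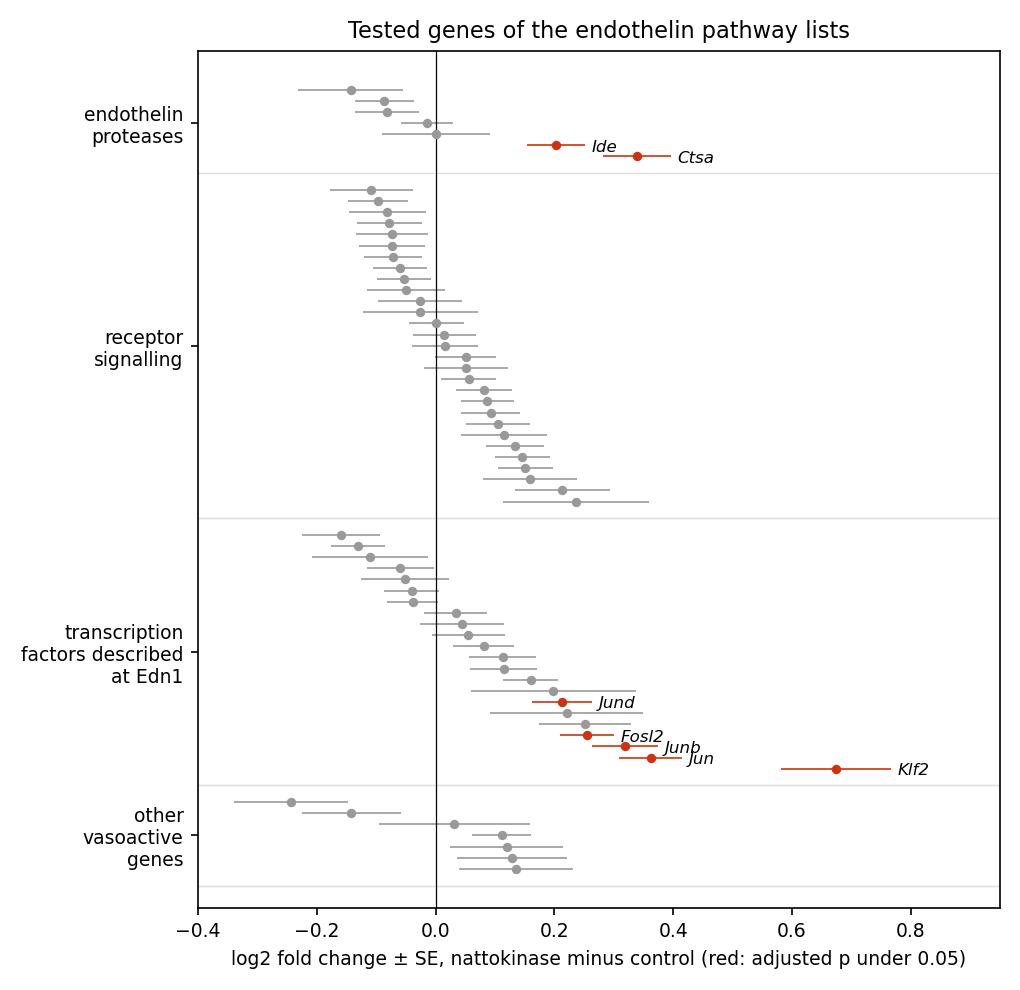
Log2 fold change with standard error for the tested genes of the 4 pathway lists, each gene on its own line, with genes past an adjusted p of 0.05 in red and named. The 2 proteases and 5 transcription factors are red, all to the right of 0, and 0 genes of the other lists are.

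The start of Edn1 is shown because it is the member whose level differed and because the listed factors have been described there. The 250 bases before the annotated start (RefSeq, GRCm38.p6, chr13:42301226-42301475, plus strand) carry in capitals the SMAD core CAGAC and its reverse complement GTCTG.
Edn1 upstream: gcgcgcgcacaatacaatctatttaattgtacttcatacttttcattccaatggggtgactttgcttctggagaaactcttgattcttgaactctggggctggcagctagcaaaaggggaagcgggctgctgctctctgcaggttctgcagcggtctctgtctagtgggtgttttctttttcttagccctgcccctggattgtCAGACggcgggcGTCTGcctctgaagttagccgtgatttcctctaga
Just inside the annotated first exon lie a GATA match in reverse (TTATCT), a reverse match to the hypoxia response core (CACGT) and an AP-1 match (TGACTAA), again in capitals.
Edn1 chr13:42301481-42301504: gtcTTATCTctggctgCACGTtgc
Edn1 chr13:42301509-42301521: gggTGACTAAtca
The TATAAA letters of a TATA box occur once before the peptide stretch, at base 113 of the annotated transcript, so these matches lie upstream of it although they are inside the annotated exon.

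Motifs were searched on both strands as TGACTNA for AP-1, AGATAA for GATA, ACGTG for the hypoxia response core, CAGAC for SMAD and TATAAA for TATA, in windows from 250 bases before to 50 bases after each start. Of 32851 such windows of mouse genes, 13.9% held the AP-1 letters, 11.2% those of GATA, 19.6% the hypoxia core, 49.6% the SMAD core and 13.6% the TATA letters. The AP-1 and GATA letters were found in the window of Edn1 and in none of the windows of the other 6 members, of which Ece1 has 4 and each of the others 1. The hypoxia core was also found in the third Ece1 window and in that of Ece2, where the match of Ece1 reads the same on both strands and overlaps itself. The SMAD core was common among the members, with matches in 3 of the 4 Ece1 windows and in those of Ece2, Ednra and Ednrb. A match is a run of letters and was not tested as a binding site. The part of AP-1 or of any other listed factor in the level of Edn1 was not tested.

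Genes of other vasoactive systems were mostly below the filter. Of 29 listed genes 7 were tested, and 0 rose and 0 fell with limma, beside 5.61% and 3.24% of all tested genes. With 7 genes, counts of 0 are not set apart from those shares. There were 2 at an unadjusted p under 0.05 and 0 called by limma-voom. Npr1, a natriuretic peptide receptor gene, had group means of 1.52 ± 0.094 and 1.135 ± 0.22 FPKM (limma adjusted p = 0.16). Ptgis, the prostacyclin synthase gene, had 115 ± 5.33 and 125 ± 2.89 FPKM (adjusted p = 0.22), the highest level in this list.

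The phosphodiesterase gene Pde5a had 1.70 ± 0.19 and 1.44 ± 0.062 FPKM (limma adjusted p = 0.35), and the natriuretic peptide receptor gene Npr2 had 2.66 ± 0.12 and 3.05 ± 0.56 (adjusted p = 0.45). Nos3, whose nitric oxide opposes endothelin-1, had at most 4 reads per library. Agt and Nppc, ligand genes like Edn1, had 0 reads in all 6 libraries, and Adm had at most 2. Nppb, a natriuretic peptide gene, had 3 to 22 reads and entered only with a filter of 0.3 FPKM, where it was called higher (log2 fold change 0.61, adjusted p = 0.035).

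The genes whose pattern over the 6 libraries was most like that of each tested member were found among 9928 other named protein-coding genes. Likeness was the root mean square difference of log2(FPKM + 1) after centring each gene on its mean. For Edn1 these were Lbh, a transcriptional cofactor gene (difference 0.052), Cdc42ep3, a gene of an effector of the small GTPase Cdc42 (0.063), and Abca1, the cholesterol exporter gene (0.065). Lbh had 126 ± 1.40 and 202 ± 10.2 FPKM, Cdc42ep3 25.4 ± 1.02 and 41.8 ± 2.98, and Abca1 3.91 ± 0.29 and 6.99 ± 0.66. In these 3 genes nattokinase replicate 1 was the lowest of its group, as it was for Edn1. Such likeness follows from how the genes were chosen and is no separate result. For Ece1 the nearest were Man2b1, a lysosomal mannosidase gene (0.016), Cbx6, a Polycomb subunit gene (0.018), and Trak1, a mitochondrial transport adaptor gene (0.020).

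**Figure D5:**
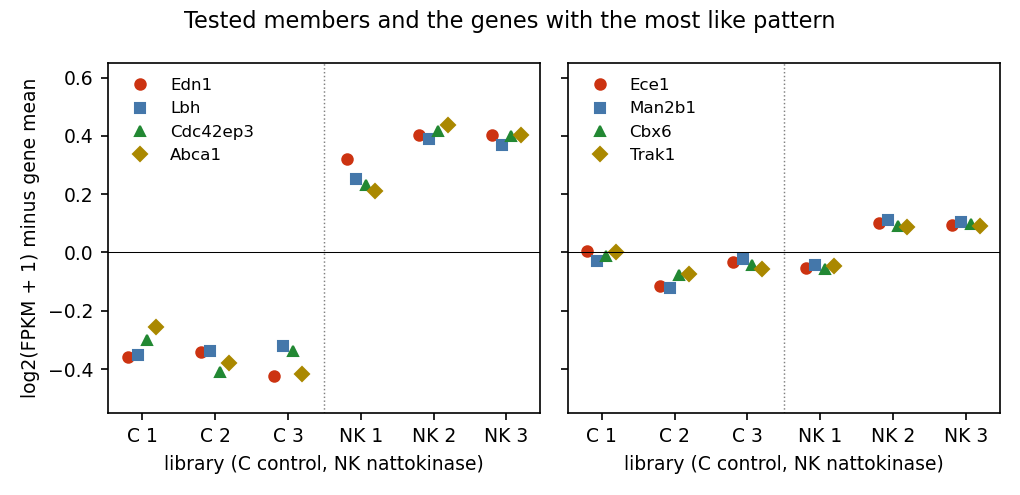
Log2(FPKM + 1) minus the gene's mean in each library for Edn1 (left) and Ece1 (right), each with its 3 most like genes. The genes beside Edn1, chosen for their likeness to it, are all below 0 in the controls and above 0 with nattokinase. Those beside Ece1, chosen likewise, stay within 0.15 of 0.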

How the data were processed

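RNA was sequenced from 6 libraries, and groups and replicate numbers come from the sample titles. Per the submitters' processing notes, reads were handled with Trimmomatic 0.38, HISAT2 2.1.0 and featureCounts 1.6.0, beside CASAVA, FastQC and MultiQC, and DESeq2 1.22.1 is named too. Their order is not recorded, and the build named is GRCh38, although all 55536 deposited identifiers matched the mouse annotation GENCODE M21 (GRCm38). The authors deposited FPKM, as found from the values: multiplied by exon length they gave whole reads, within 0.05, for 100% of values above 0. Strandedness is not stated.

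Values were tested as log2(FPKM + 1) with limma 3.58.1 in R 4.3.3 (group term, trend, robust prior, two-sided, Benjamini-Hochberg adjustment over all tested genes), after a check on simulated data. This scale understates changes of low genes. Exons of 35.7% of tested genes overlap another gene. Among named genes this holds for Edn1, Ece2, Ednra, Ctsa, Furin, Hif1a, Eef1akmt4, Gnas, Nos3, Col3a1, Pdgfra, Notch3, Des, Prox1, Reln, Foxd3 and Cd3e. It also holds for Jun, Junb, Jund, Foxo1, Prkca, Npr1, Ptgis, Pde5a, Npr2, Cdc42ep3 and Cbx6.

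The members, lists and markers were chosen with earlier results of these data known. Named were all members, up to 4 tested genes with the smallest p in each list and the 3 most like genes of each tested member. Neighbours, and list genes shown for their role or direction, were chosen after their values were seen. Alternatives were other pseudocounts, filters and scalings, limma-voom, a replicate block and leaving out each library. Promoter sequences are from RefSeq, and all 7 members matched.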

Additional observations from a re-analysis of the deposited data

How the results depend on the processing

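The log2 difference of Edn1 was 0.73 to 0.78 without any 1 library and 0.72 to 0.80 over the other alternatives, the highest being 0.80 with limma-voom, which adds no pseudocount of 1 FPKM. That of Ece1 was 0.061 to 0.14 without any 1 library and 0.062 to 0.10 otherwise.

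The counts over all genes moved with single libraries, from 328 to 720 higher and from 197 to 486 lower when 1 was left out. Without the filter on low values 221 genes were higher and 109 lower, 0 endothelin proteases rose, and 2 transcription factors rose. With protein-coding totals 478 genes were higher and 497 lower, so that the balance of calls turned, and 1 protease rose. The proteases that rose numbered 1 to 2 and the transcription factors 4 to 5 when 1 library was left out. Limma-voom called 1 signalling gene higher. Leaving out 1 library gave 0 to 1 signalling genes higher and 0 to 1 lower. With a filter of 0.3 FPKM 1 other vasoactive gene rose. The cause of these shifts was not tested.

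Same-numbered libraries did not deviate together (correlations of deviations -0.089, -0.044 and -0.059), so the numbers are not read as pairs. With the replicate number as a block 439 genes were higher and 249 lower, and 1 protease rose. Of 266 values of the 19 genes named for their p or place under the alternatives 0 changed direction, 23 lost a call and 1, Plcb4, gained one. Beyond these 19, Fos, Rela, Rock2, Gnai2 and Nppb gained calls, as given beside their values. The planned quasi-likelihood count test was not run, and limma-voom on the recovered reads was the one count-based alternative. For members without reads, depth limits any statement to the levels that 3 reads allow.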
